A study of Mus musculus with 24 samples.

Results

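The 10 genes described here, Lyz2, Cd68, Csf1r, Ptprc, Cd14, C1qa, C1qb, Itgam, Mrc1 and Cd74, are widely used markers of macrophages and other leukocytes. They were taken by symbol from the 18669 genes of a count table of mouse quadriceps femoris, and all 10 passed the filter on low counts that left 13754 genes for testing. RNA was sequenced from 24 mice on a CBA x C57BL/6 background, 2 in each of 12 groups made of 3 genotypes and 4 treatments, and muscle was taken 4 h after treatment. The genotypes were wild type, R6/2 (which carries a transgene with exon 1 of the human huntingtin gene and a long CAG repeat, and models Huntington's disease) and Hsf1-/- (homozygous knockout of HSF1, the main transcription factor of the heat shock response). Heat shock (HS) was given to anaesthetised mice with a heating pad at 41.5 °C for 15 min, and its control was the same procedure at 36.9 °C for 21 min. Other mice received the HSP90 inhibitor HSP990 by mouth (12 mg/kg) or vehicle, HSP90 being a chaperone that holds HSF1 inactive. The labels do not say whether mice of a group shared litters or cages, so p-values measure the spread between these mice. Wild type and R6/2 mice were 12 weeks old, whereas Hsf1-/- mice were 10 weeks old in the HS experiment and 8 weeks old in the HSP990 experiment, so genotype and age cannot be told apart for Hsf1-/-.

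Muscle fibres make up most of the tissue, and resident macrophages lie in the connective tissue between them. These cells take up debris, present antigen and, after injury, are joined by blood neutrophils and monocytes. Csf1r is the receptor through which CSF1 and IL-34 keep macrophages alive, Ptprc encodes the pan-leukocyte antigen CD45, and Cd68, Lyz2 and Mrc1 encode a lysosomal protein, lysozyme M and the mannose receptor. Cd14 and Itgam encode the co-receptor for lipopolysaccharide and the CD11b integrin chain, which neutrophils and monocytes also carry. C1qa and C1qb encode chains of complement C1q, and Cd74 encodes the invariant chain that guides MHC class II molecules. In whole muscle, fewer cells of a type and less RNA per cell cannot be told apart.

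The libraries held 22450177 to 46599238 counts. Hsf1 itself was at 21.1 to 29.0 CPM (counts scaled to a common library size by the TMM method) in the 8 Hsf1-/- mice and 45.3 to 68.5 CPM in the other 16, so its transcript was lower but still counted. Hspa1a, an HSF1 target, reached 119 to 2950 CPM in treated wild type and R6/2 mice and 1.91 to 9.15 CPM in treated Hsf1-/- mice. Genes of skeletal muscle fibres summed to 66527 to 322020 CPM. Counts of Y-linked genes were 0 to 4 in the wild type and R6/2 mice of the HS experiment and at least 3916 in every other mouse, so a comparison of the 2 experiments within those genotypes, or of Hsf1-/- with wild type in the HS experiment, also compared mice with and without these transcripts.

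RefSeq promoter sequences (build GRCm38.p6, the 250 bases before the start site, shown 5′ to 3′ on the gene's strand) were found for 6 of the 10 genes, namely Lyz2, Cd68, Ptprc, C1qb, Itgam and Mrc1. The 4 shown belong to the genes that rose with HSP990 (Lyz2, Mrc1) or with HS (C1qb, Itgam) below. Capitals mark GAGGAA on either strand, the core of sites of the myeloid factor PU.1, and GAANNTTC, an inverted repeat of the heat shock element that HSF1 binds, which reads alike on both strands. GAGGAA is in 23.3% and GAANNTTC in 6.69% of the 32851 promoters of the same length.
Lyz2: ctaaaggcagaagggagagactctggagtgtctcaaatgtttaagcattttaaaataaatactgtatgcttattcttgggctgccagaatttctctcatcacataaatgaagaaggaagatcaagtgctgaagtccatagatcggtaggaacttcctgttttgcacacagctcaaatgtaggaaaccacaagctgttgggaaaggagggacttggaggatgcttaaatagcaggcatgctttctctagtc
Mrc1: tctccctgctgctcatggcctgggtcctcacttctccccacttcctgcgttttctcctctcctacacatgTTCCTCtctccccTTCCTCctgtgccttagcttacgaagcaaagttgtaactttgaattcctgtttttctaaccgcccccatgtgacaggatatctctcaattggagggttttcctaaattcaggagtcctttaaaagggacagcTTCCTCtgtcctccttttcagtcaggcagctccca
C1qb: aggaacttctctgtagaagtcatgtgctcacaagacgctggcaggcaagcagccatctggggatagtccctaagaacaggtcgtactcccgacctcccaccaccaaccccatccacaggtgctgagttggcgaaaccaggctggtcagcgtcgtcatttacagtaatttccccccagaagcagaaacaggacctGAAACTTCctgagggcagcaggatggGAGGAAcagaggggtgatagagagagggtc
Itgam: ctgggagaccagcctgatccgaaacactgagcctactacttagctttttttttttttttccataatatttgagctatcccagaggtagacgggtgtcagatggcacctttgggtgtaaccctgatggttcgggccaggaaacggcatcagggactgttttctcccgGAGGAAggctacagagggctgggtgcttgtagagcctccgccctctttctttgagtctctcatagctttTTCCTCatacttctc
These windows lie in GRCm38.p6 at chr10:117282273-117282522 (minus strand) for Lyz2, chr2:14229164-14229413 (plus strand) for Mrc1, chr4:136886201-136886450 (minus strand) for C1qb and chr7:128062390-128062639 (plus strand) for Itgam. GAGGAA occurs 3 times in the Mrc1 window, at -180, -167 and -35 bases from the start site, 2 times in that of Itgam, at -84 and -15, and 1 time in that of C1qb, at -30. C1qb alone among the 6 genes has GAANNTTC, at -56. The Lyz2 window has neither.

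Reads had been aligned to the older build mm9, in which the gene spans are chr10:116714390-116719377 for Lyz2, chr2:14151041-14253684 for Mrc1, chr4:136451832-136454718 for C1qa, chr4:136436044-136442102 for C1qb and chr7:135206154-135271674 for Itgam.

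Levels differed widely among the 10 genes. Per kilobase of exon, the median over the 24 mice was 40.3 CPM per kb for Cd74, 21.4 for Lyz2, 13.4 for C1qa and 11.2 for C1qb. Csf1r, Cd68 and Mrc1 followed at 2.46, 2.46 and 2.30 CPM per kb and Cd14 at 1.64, and Ptprc and Itgam were lowest at 0.448 and 0.401. The order of the 4 highest genes was clear, but Csf1r exceeded Cd68 in 16 of 24 mice, Cd68 exceeded Mrc1 in 16, Mrc1 exceeded Cd14 in 17 and Ptprc exceeded Itgam in 12, so those neighbours did not separate beyond the spread between mice. Raw counts followed suit, with medians of 1514 for Cd74 and 80 to 83 for Cd68, Cd14, Ptprc and Itgam, where counting error alone is up to 11.2% of a value at the median. Each gene spanned a 2.36-fold (Lyz2) to 4.63-fold (Cd74) range over the 24 mice.

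**Figure D1:**
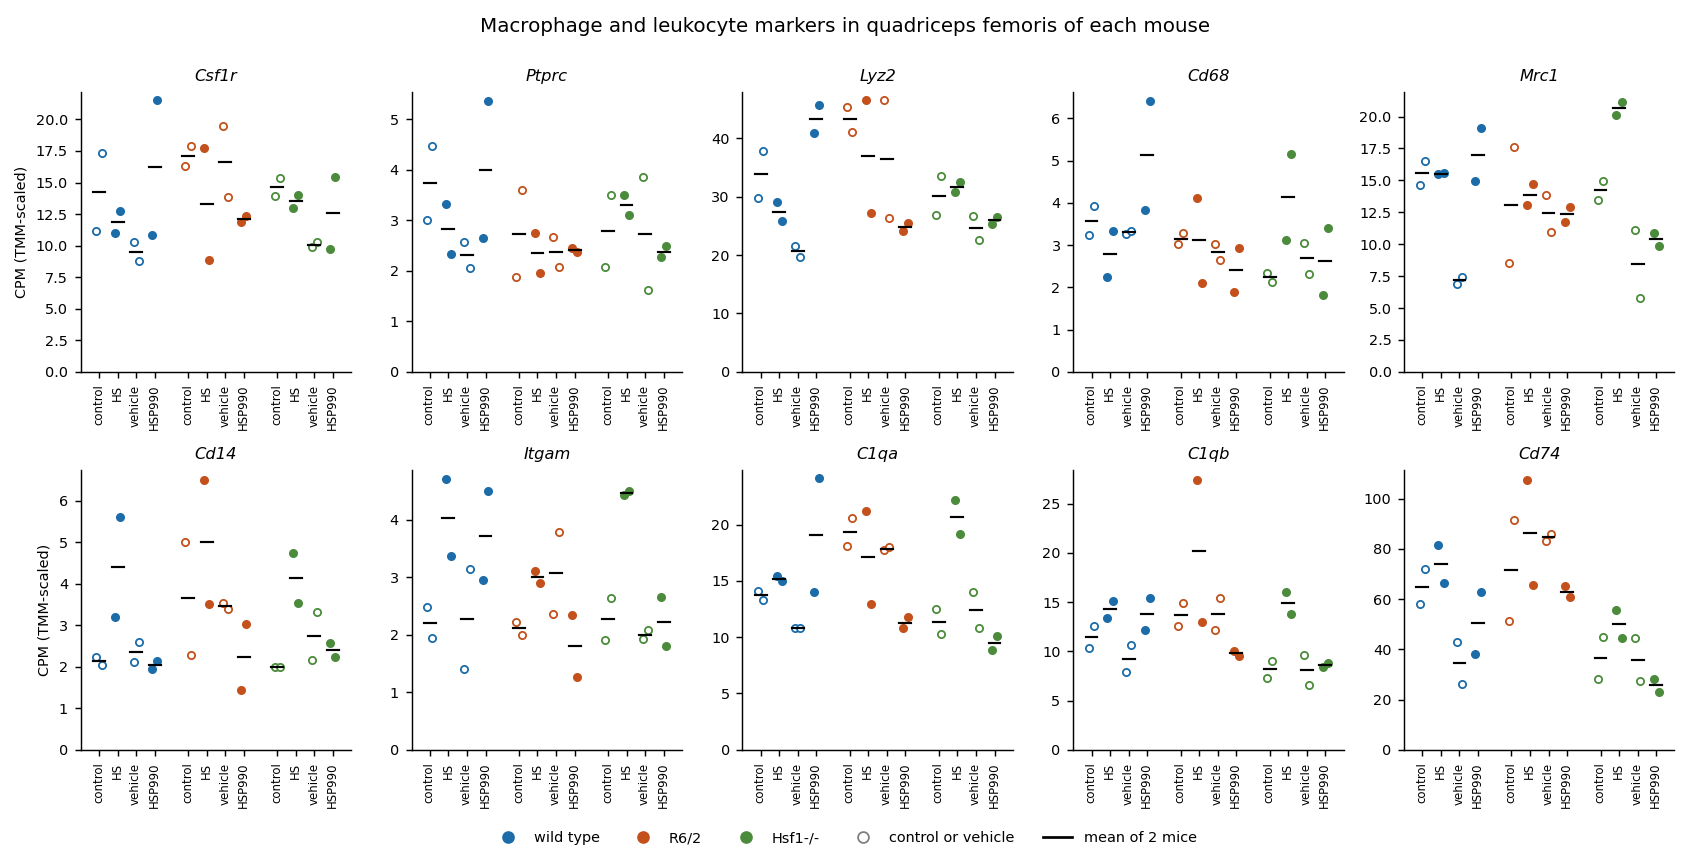
CPM (TMM-scaled, linear axis from 0) of each of the 10 markers in each of the 24 mice, grouped by genotype (colour) and treatment, with open circles for control or vehicle, filled circles for HS or HSP990 and a bar at the mean of 2 mice. Lyz2 in wild type lay at 19.7 to 21.5 CPM with vehicle and 40.8 to 45.7 CPM with HSP990, and Itgam was higher in the HS mice than in the control mice of each genotype.

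In 2 groups 1 mouse stood apart from its partner across these genes. The second wild type HSP990 mouse was higher than the first in 10 of 10 genes (summed level 207 against 142 CPM), and the first R6/2 HS mouse was higher than the second in 9 of 10 (250 against 153 CPM). In the other 10 groups, each mouse was the higher one in 3 to 7 of the 10 genes. The calls for C1qb after HS and for Lyz2 and Mrc1 after HSP990 are given with and without the mouse concerned. For Cd14 and Itgam after HS, the cases that kept the call with any 1 mouse left out are counted.

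After HS, Cd14, Itgam and C1qb rose on the mean of the 3 genotypes, by 0.58 to 0.85 on the log2 scale, and the other 7 genes did not pass the test. Of all genes tested, 6.14% passed in this comparison of 6 HS with 6 control mice, and the median log2 difference was 0.24 over the 10 markers and -0.01 over all genes. Some neutrophil genes and some other myeloid genes were also called higher in the same 6 HS mice, as listed further on.

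Itgam ranged from 1.91 to 2.65 CPM (median 2.11) in the 6 control mice and from 2.90 to 4.70 CPM (median 3.90) in the 6 HS mice. The 2 groups did not overlap, and the HS mice were the higher in each genotype taken alone. The share of all genes that separate in this way was not counted. Non-overlap is therefore given here and below as a description only. The difference on the mean of the genotypes was 0.78 ± 0.222 (SE) on the log2 scale (quasi-likelihood test of edgeR, adjusted p = 0.0449 by Benjamini-Hochberg). By genotype it was 0.87 in wild type, 0.51 in R6/2 and 0.97 in Hsf1-/-.

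Cd14 was at 2.25 and 2.05 CPM in wild type control mice and 3.21 and 5.62 CPM after HS. In Hsf1-/- it was at 1.99 and 1.98 CPM in control mice and 4.75 and 3.54 CPM after HS. In R6/2 it was at 5.02 and 2.28 CPM in control mice and 6.5 and 3.51 CPM after HS, so here the groups overlapped because 1 control mouse was high. The mean difference over genotypes was 0.85 ± 0.24 on the log2 scale (edgeR adjusted p = 0.0447).

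C1qb was at 10.3 and 12.6 CPM in wild type control mice against 13.4 and 15.1 CPM after HS, and at 7.33 and 9.03 against 16.1 and 13.8 CPM in Hsf1-/-. In R6/2 the control mice were at 12.6 and 14.9 CPM and the HS mice at 27.4 and 13 CPM. The R6/2 value of 27.4 CPM was the highest of all 24 mice and came from the mouse that was high in 9 of 10 genes. Over the 3 genotypes C1qb differed by 0.58 ± 0.161 on the log2 scale (edgeR adjusted p = 0.0401), and without that mouse by 0.37 (adjusted p = 0.126). C1qa, the partner chain, was at 10.3 to 20.5 CPM in control mice and 13 to 22.2 CPM after HS, which did not pass (0.28 on the log2 scale, adjusted p = 0.285).

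The calls for Cd14, C1qb and Itgam lay close to the threshold. They were lost when counts were scaled by library size only (adjusted p of 0.0663 to 0.081) and with the replicate number as a block (0.0517 to 0.0576), and with only the groups compared Itgam alone kept its call. Leaving out 1 mouse at a time kept the call in 3 of 12 cases for Cd14, 1 of 12 for C1qb and 0 of 12 for Itgam, with adjusted p up to 0.156, 0.126 and 0.132. Itgam kept a log2 difference of at least 0.70 with any 1 mouse left out.

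Lyz2, Csf1r and Ptprc had negative values on the mean of the genotypes after HS, -0.15, -0.25 and -0.12 on the log2 scale, and Cd68, Mrc1 and Cd74 positive ones of 0.17, 0.21 and 0.31. None of these 6 passed. Within single genotypes, no marker passed after HS. In wild type, where 2.06% of all genes passed, the lowest adjusted p among the 10 was 0.311. In R6/2, where 0.0436% passed, it was 0.624, and in Hsf1-/-, where 0.00727% passed, it was 0.189 (C1qa, 12.5 and 10.3 CPM in control mice against 22.2 and 19.1 CPM after HS). Also in Hsf1-/-, 9 of 10 markers had higher means after HS, with a median log2 difference of 0.70 against 0.00 for all genes. The corresponding medians were 0.07 in wild type and 0.04 in R6/2. The difference of the HS response between Hsf1-/- and wild type was above 0 for 10 of 10 markers, but none passed (0.16% of all genes passed, and the adjusted p was 1 for each marker). Between R6/2 and wild type the HS responses also gave 0 of 10 (0.0727% of all genes), with 6 markers above 0 and 4 below.

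Some genes of neutrophils were higher after HS. Of the 11 neutrophil genes in the table, 7 were tested. On the mean of the 3 genotypes 6 of them rose, beside 6.14% of all genes passing in either direction. The counts of these genes were low. The filter on low counts included the HS libraries, so which neutrophil genes were tested depended in part on them. Retnlg, for example, had at least 2 counts in all 6 HS libraries and 0 in 4 of 6 control libraries. Mpo, Elane, Camp and Ltf were not tested. S100a8 and S100a9, which encode the calprotectin subunits, had 0 to 5 and 1 to 11 counts in control libraries and 16 to 89 and 34 to 185 after HS (edgeR adjusted p = 0.0151 and 0.00947). Cxcr2, a neutrophil chemokine receptor, had 0 to 2 counts in control libraries and 6 to 18 after HS (edgeR adjusted p = 0.00531), Retnlg had 0 to 2 and 2 to 14 (0.0151), and Mmp8, neutrophil collagenase, had 0 to 21 and 12 to 55 (0.0224). S100a9 and Cxcr2 kept their calls with any 1 of the 12 mice left out, whereas each of the other neutrophil genes called lost its call in some cases. Retnlg was also not called by DESeq2. The summed level of the list was 0.532 to 1.49 CPM in control mice and 2.67 to 10.0 CPM in HS mice. Mpo and Camp, genes of immature neutrophils, were at 0 counts in all 6 HS libraries, but had at most 1 count in any control library. Ngp, Ltf and Elane of the same list had up to 4, 18 and 3 counts in HS libraries and up to 6, 22 and 2 in control libraries. Red blood cell genes also had positive differences, 4 of 4 tested with a median of 1.11 on the log2 scale and none passing, and their sum was 14.5 to 30.6 CPM in control and 10.7 to 80.5 CPM in HS mice. Of 10 endothelial genes, 3 rose and 2 fell. The part of neutrophils, blood or vessels in the rise of Itgam, Cd14 and C1qb was not tested.

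Among 39 other macrophage and myeloid genes tested, 4 rose after HS and none fell, beside 6.14% of all genes passing in either direction. The summed level of this list did not rise in every genotype. In wild type it was 476 to 521 CPM in control and 394 to 446 CPM in HS mice. In R6/2 it was 518 to 532 against 418 to 525 CPM, and in Hsf1-/- 474 to 524 against 531 to 602 CPM. Maf and Gas6, with medians of 239 and 152 CPM over the 24 mice, weighed heavily in it. Irf8, a transcription factor of monocytes and dendritic cells, was at 5.99 to 8.16 CPM in control and 11.5 to 24.0 CPM in HS mice (edgeR adjusted p = 7.19e-05). The Fc receptor gene Fcgr3 was at 2.34 to 3.93 against 4.11 to 7.03 CPM (edgeR adjusted p = 0.0013). Neither gene overlapped between the 6 control and 6 HS mice, and both were also called in wild type taken alone, where with 1 of the 4 mice left out Irf8 kept its call in 2 cases and Fcgr3 in 0 (adjusted p up to 0.215). The inhibitory Fc receptor gene Fcgr2b (0.73 on the log2 scale, edgeR adjusted p = 0.0265) and the tetraspanin gene Cd53 (0.82, adjusted p = 0.0127) rose with overlapping groups. Of 14 genes of chemokines and cytokines, Ccl6 and Ccl9 rose, Ccl6 from 4.59 to 11.9 CPM in control to 13.2 to 19.5 CPM in HS mice (edgeR adjusted p = 0.00276) and Ccl9 from 4.45 to 7.38 to 9.05 to 16.3 CPM (adjusted p = 0.00012). Irf8, Fcgr3, Cd53, Ccl6 and Ccl9 kept their calls with any 1 of the 12 mice left out.

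On the mean of the genotypes after HS, 6.14% of all genes passed. Of 19 partner genes of the 10 markers, chosen as ligands, co-receptors, chains and loading factors, only Il34 did. This second ligand of the Csf1r receptor was at 6.23 to 7.78 CPM in the 6 control and 8.13 to 13.8 CPM in the 6 HS mice without overlap (0.65 on the log2 scale, edgeR adjusted p = 0.00162), while Csf1 and Csf1r did not pass. C1qc, the third C1q chain, was at 9.03 to 14.6 CPM in control and 10.7 to 20.8 CPM in HS mice, which overlapped.

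**Figure D2:**
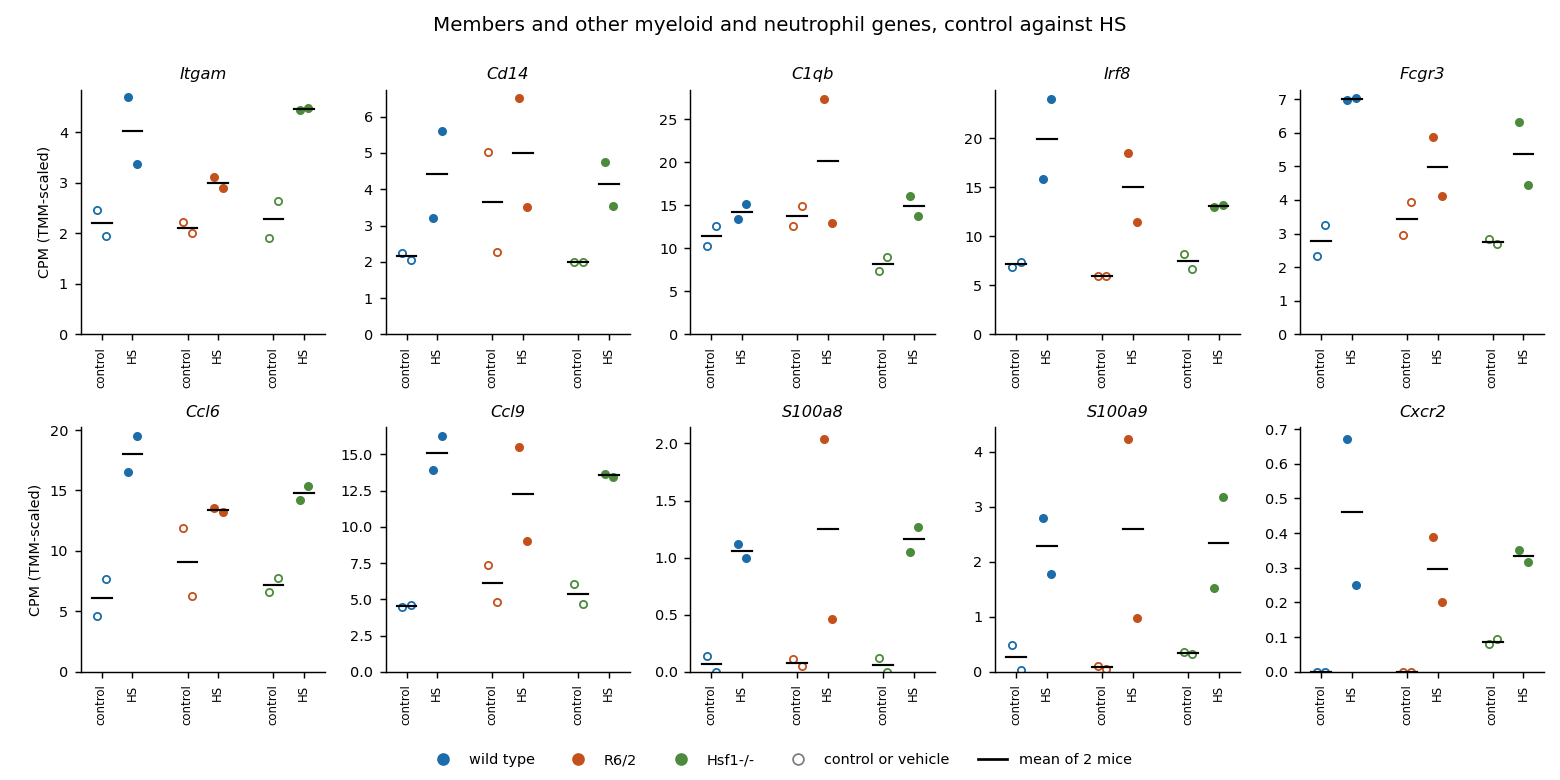
CPM (TMM-scaled, linear axis from 0) in each control (open) and HS (filled) mouse of the 3 genotypes (colour) for 3 of the markers and 7 other myeloid and neutrophil genes, with a bar at the mean of 2 mice. Itgam, Irf8, Fcgr3, Ccl6, Ccl9, S100a8, S100a9 and Cxcr2 did not overlap between the 6 control and the 6 HS mice, while Cd14 and C1qb overlapped through R6/2 mice.

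After HSP990, Lyz2 and Mrc1 rose in wild type, and none of the 10 markers passed the test in R6/2 or Hsf1-/-. In wild type 9 of the 10 had higher means, with a median log2 difference of 0.74 against -0.00 over all genes. In this comparison 1.85% of all genes passed.

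Lyz2 was at 21.5 and 19.7 CPM (mean 20.6 ± 1.23 SD, n = 2) in wild type vehicle mice and at 40.8 and 45.7 CPM (43.2 ± 3.43, n = 2) after HSP990. Both treated mice were above both vehicle mice. The log2 difference was 1.07 ± 0.243 (SE; edgeR adjusted p = 0.0338). About 23.3% of the 40-base windows of the Lyz2 transcript also match its neighbour Lyz1, so the level is uncertain to that extent. Lyz1 was at 0.331 and 0.349 CPM with vehicle and 1.10 and 1.31 CPM with HSP990, which is small beside Lyz2.

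Mrc1 was at 6.91 and 7.44 CPM (7.18 ± 0.377 SD, n = 2) in wild type vehicle mice and at 14.9 and 19.1 CPM (17.0 ± 2.96, n = 2) after HSP990, with no overlap and a log2 difference of 1.25 ± 0.291 (SE; edgeR adjusted p = 0.0385). The 2 wild type control mice of the HS experiment were higher than these vehicle mice, at 14.7 and 16.5 CPM for Mrc1 and 29.8 and 37.9 CPM for Lyz2. Those control mice had been anaesthetised and lacked the Y-linked transcripts that the vehicle mice had, so these differences cannot be told apart. Over the 3 genotypes, vehicle mice differed from control mice by -0.65 on the log2 scale for Mrc1 (edgeR adjusted p = 0.159) and by -0.42 for Lyz2 (0.263), and 0 of 10 markers passed, beside 0.145% of all genes.

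Of the others in wild type, C1qa was at 10.8 CPM in both vehicle mice and at 14.0 and 24.1 CPM after HSP990 (edgeR adjusted p = 0.0933). Csf1r went from 10.3 and 8.76 to 10.8 and 21.6 CPM (0.77 on the log2 scale) and Ptprc from 2.57 and 2.06 to 2.64 and 5.36 CPM (0.80), neither passing. For these the mean was set mainly by the second HSP990 mouse, which was the higher one in all 10 genes. Cd14 had the only value below 0, -0.20 on the log2 scale. Without the second HSP990 mouse, Lyz2 still differed by 0.99 on the log2 scale (adjusted p = 0.208), and the adjusted p of Mrc1 was 0.272. Without the first, C1qa passed (adjusted p = 0.0225) and Lyz2 and Mrc1 did not (0.0885 and 0.0737). Each of the 4 omissions ended the calls for Lyz2 and Mrc1, with adjusted p up to 0.347 and 0.292, and left 1 mouse on 1 side, which was then taken to vary like the other groups.

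In R6/2, HSP990 gave the other sign. Of the 10 markers 9 had lower means, with a median of -0.48 on the log2 scale against 0.01 for all genes, yet 0 passed beside 1.43% of all genes. C1qa was at 17.7 and 18 CPM with vehicle and 10.8 and 11.8 CPM with HSP990 (-0.66 on the log2 scale, edgeR adjusted p = 0.262). Lyz2 was at 46.6 and 26.4 CPM against 24.2 and 25.4 CPM, where 1 vehicle mouse was far above the other 3 mice. Cd74 was at 83.3 and 85.8 CPM against 65.3 and 60.6 CPM. Ptprc, with the only value above 0, differed by 0.03 on the log2 scale.

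In Hsf1-/-, the 10 markers split evenly, 5 above and 5 below, around a median of 0.01 on the log2 scale, and 0 passed beside 0.218% of all genes. Mrc1, for example, was at 11.1 and 5.77 CPM with vehicle and at 10.9 and 9.90 CPM with HSP990. On the mean of the 3 genotypes 0 of 10 passed beside 4.65% of all genes, and Mrc1 came nearest (0.51 on the log2 scale, edgeR adjusted p = 0.0932).

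The difference between genotypes was tested directly. The HSP990 response of R6/2 minus that of wild type was below 0 for 10 of 10 markers, with a median of -1.15 on the log2 scale against -0.00 for all genes. The extremes were -1.63 for Lyz2 and -0.43 for Cd14. No gene of any kind passed in this comparison (0% of all genes by edgeR, with 981 genes and 6 of the 10 markers at an unadjusted p under 0.05; DESeq2 called 49 genes, Lyz2 and C1qa among them). The edgeR adjusted p was 0.299 for both Lyz2 and C1qa. Hsf1-/- minus wild type gave 9 of 10 below 0, a median of -0.82 on the log2 scale and 0 passing beside 0.422% of all genes. These 2 differences share the 4 wild type mice, including the second HSP990 mouse.

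**Figure D3:**
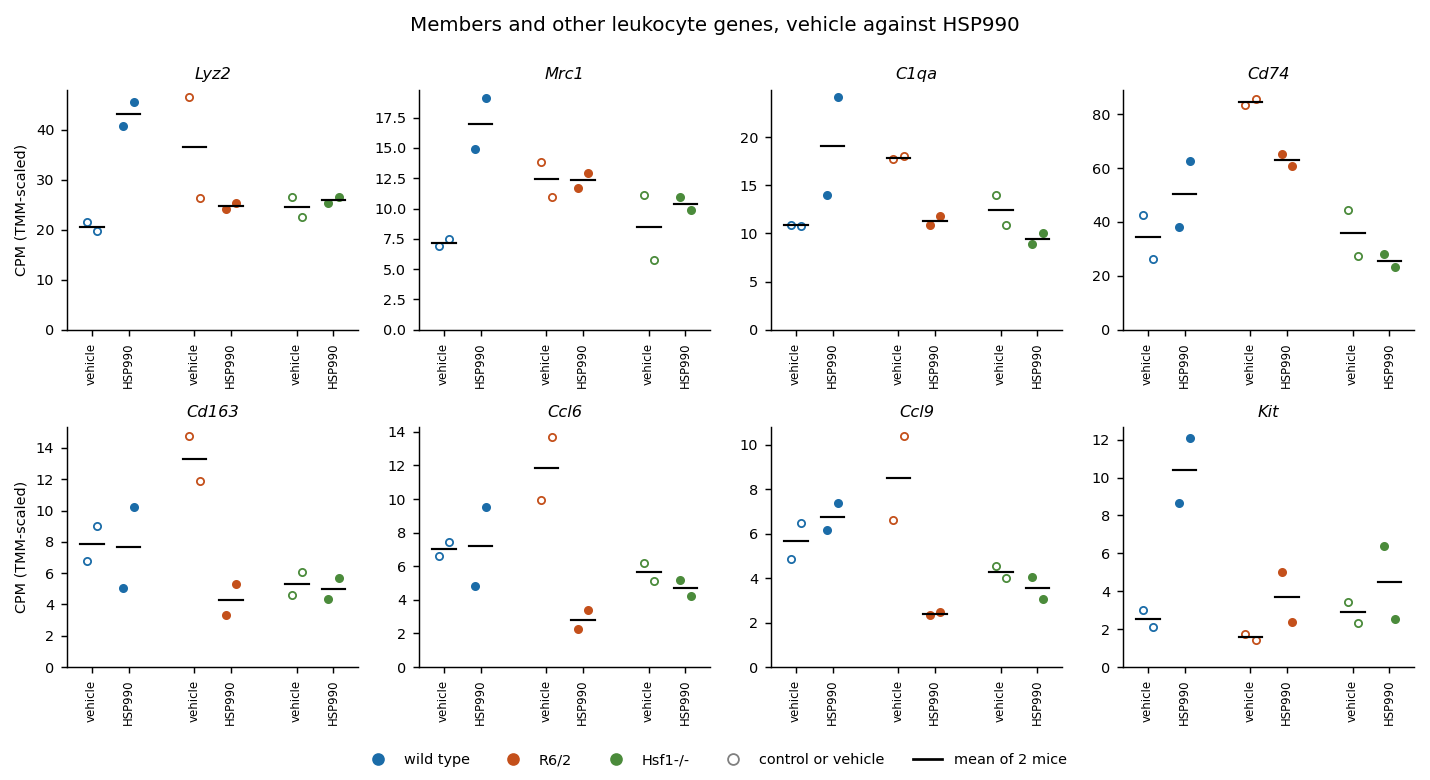
CPM (TMM-scaled, linear axis from 0) in each vehicle (open) and HSP990 (filled) mouse of the 3 genotypes (colour) for 4 of the markers and 4 other leukocyte genes, with a bar at the mean of 2 mice. Lyz2 and Mrc1 rose from 20.6 to 43.2 and from 7.18 to 17.0 CPM on average in wild type, while Cd163, Ccl6 and Ccl9 fell in R6/2.

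Other leukocyte genes were read beside these. In wild type, 0 of 39 other macrophage and myeloid genes passed after HSP990 (median 0.59 on the log2 scale, 32 above 0), and of 19 partner genes 1 passed. That was Ciita, the master regulator of MHC class II genes, which was at 0.662 and 0.504 CPM with vehicle and 1.85 and 2.91 CPM with HSP990 (edgeR adjusted p = 0.0459). The class II genes it controls did not pass, with H2-Aa at 15.5 and 11.2 CPM against 11.3 and 22.4 CPM. Kit, the stem cell factor receptor of mast cells and of progenitors, rose from 3.02 and 2.09 to 8.68 and 12.1 CPM (edgeR adjusted p = 0.0367), but it was 1 of 5 mast cell genes tested and the other 4 did not pass. Ciita and Kit both lost their calls with any 1 of the 4 mice left out (adjusted p up to 0.423 and 0.4). In the same mice the 8 fibroblast genes all had positive differences (median 0.61 on the log2 scale, 0 passing), and their sum was 1040 to 1060 CPM with vehicle and 1761 to 1794 CPM with HSP990. Neutrophil genes stayed at a summed 0.869 to 1.82 CPM with vehicle and 0.848 to 1.45 CPM with HSP990. The part of tissue make-up in the rise of Lyz2 and Mrc1 was not tested.

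In R6/2, 3 other genes fell after HSP990. Cd163, the haemoglobin scavenger receptor of resident macrophages, was at 14.7 and 11.9 CPM with vehicle and 3.31 and 5.30 CPM with HSP990 (-1.63 on the log2 scale, edgeR adjusted p = 0.0222). The chemokine genes Ccl6 and Ccl9 were at 9.97 and 13.7 CPM and at 6.6 and 10.4 CPM with vehicle, and at 2.27 and 3.38 CPM and 2.33 and 2.48 CPM with HSP990 (edgeR adjusted p = 0.0042 and 0.00306). The 3 genes thus fell where the 10 markers did not pass. Cd163 lost its call with any 1 of the 4 mice left out (adjusted p up to 0.302), and Ccl6 and Ccl9 kept theirs in 2 of the 4 cases (up to 0.102 and 0.0635). The first R6/2 HSP990 mouse held more neutrophil RNA than any other, 17.3 CPM summed against 0.876 CPM in the second, including 187 counts of Ngp and 75 of Mpo. On the mean of the 3 genotypes, HSP990 lowered Ccl6, Ccl9, Lgals3 (galectin 3) and H2-DMb1 (an MHC class II loading factor). The falls were 0.76, 0.60, 1.14 and 1.37 on the log2 scale respectively (edgeR adjusted p of 0.0332 to 0.0466). For Ccl6 and Ccl9, R6/2 weighed most in this mean, with -2.06 and -1.82 on the log2 scale in that genotype alone. These calls on the mean held in 2 to 4 of the 12 cases with 1 mouse left out. In the same comparison the chemokine gene Cxcl12 rose by 0.58 (adjusted p = 0.0154, kept in 8 of 12 cases) and Kit by 1.30 on the log2 scale (adjusted p = 0.00814, kept in 12 of 12).

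HS and HSP990, both of which activate HSF1, were compared by the difference of their responses. In wild type, where 2.38% of all genes passed, 1 marker did, Lyz2. Its HS response was -0.30 and its HSP990 response 1.07 on the log2 scale, a difference of -1.37 ± 0.341 (SE; edgeR adjusted p = 0.0431). The 2 responses come from separate experiments on mice that also differed in Y-linked transcripts, so treatment and experiment cannot be told apart here. The call was lost with any 1 of the 8 mice left out (adjusted p of 0.0699 to 0.188). Mrc1 differed by -1.25 on the log2 scale without passing (adjusted p = 0.125). In R6/2 and Hsf1-/- 0 of 10 passed beside 1.63% and 0.145% of all genes, and there 9 and 8 of the 10 markers had the larger value for HS, against 2 of 10 in wild type.

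**Figure D4:**
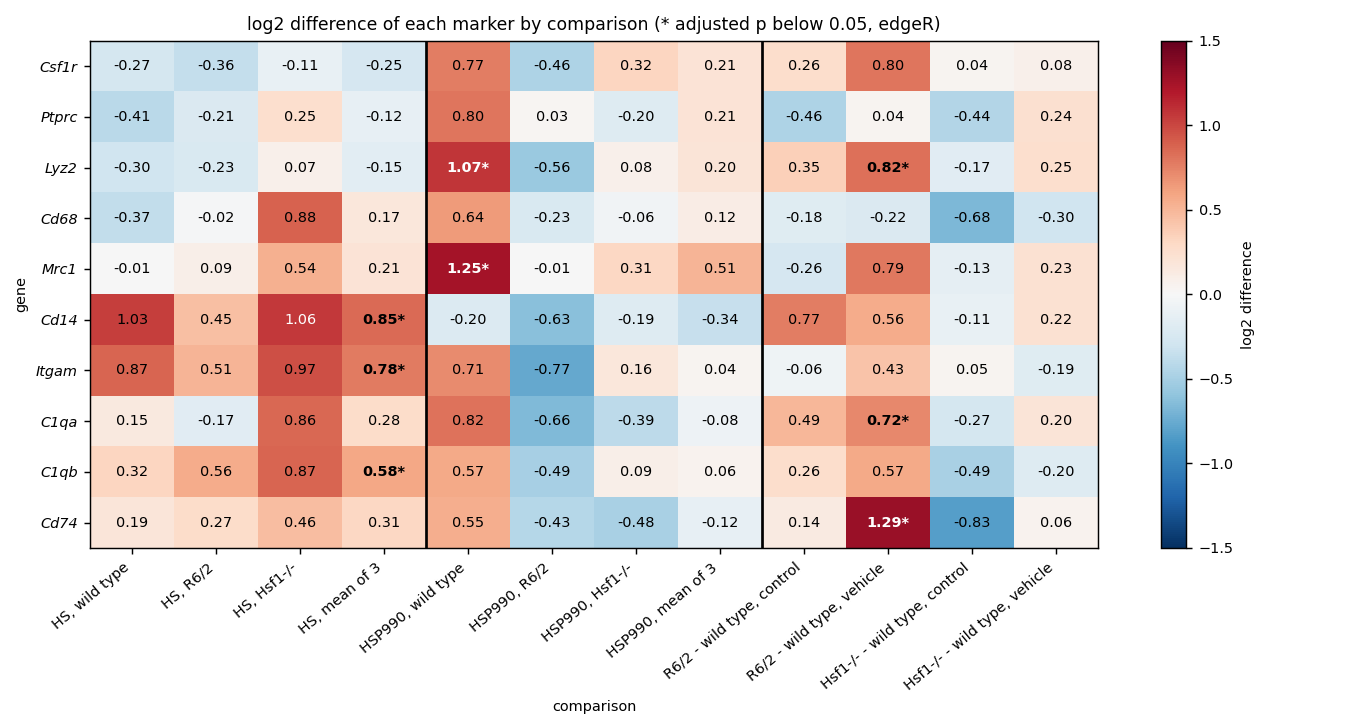
Log2 differences (colour and printed value, edgeR after TMM scaling) of the 10 markers (rows) in 12 comparisons (columns), with an asterisk where the adjusted p was below 0.05. Asterisks stand at Cd14, Itgam and C1qb for HS on the mean of the genotypes, at Lyz2 and Mrc1 for HSP990 in wild type and at Lyz2, C1qa and Cd74 for R6/2 against wild type with vehicle.

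Untreated R6/2 muscle had more Lyz2, C1qa and Cd74 RNA than wild type. The 4 R6/2 and 4 wild type mice with control or vehicle treatment were pooled, and 30.5% of all genes passed, so 3 of 10 markers is close to the share of all genes. The median log2 difference was 0.48 over the markers and 0.05 over all genes. C1qa was at 18.1, 20.5, 17.7 and 18 CPM in the R6/2 mice and 14.1, 13.3, 10.8 and 10.8 CPM in the wild type mice, without overlap (0.61 ± 0.165 on the log2 scale, edgeR adjusted p = 0.0103). This call held with any 1 of the 8 mice left out.

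Lyz2 was at 45.4, 41.1, 46.6 and 26.4 CPM in R6/2 and 29.8, 37.9, 21.5 and 19.7 CPM in wild type (0.59 ± 0.17 on the log2 scale, edgeR adjusted p = 0.0145). Cd74 was at 51.3, 91.6, 83.3 and 85.8 CPM against 58.0, 71.8, 42.7 and 26.3 CPM (0.72 ± 0.236, adjusted p = 0.0298). Leaving out the first wild type control, the first R6/2 vehicle or the second wild type vehicle mouse kept C1qa as the 1 marker called. Lyz2 and Cd74 overlapped between genotypes, Lyz2 through 1 R6/2 vehicle mouse and Cd74 through 1 R6/2 control mouse. Csf1r and Cd14 had values of 0.53 and 0.66 on the log2 scale that did not pass (adjusted p = 0.0921 and 0.1), and Cd68 and Ptprc had values of -0.20 and -0.21, which turned to 0.41 and 0.40 with scaling by library size only.

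Taken by experiment, the vehicle mice carried these calls. With vehicle, Cd74, Lyz2 and C1qa differed by 1.29, 0.82 and 0.72 on the log2 scale (edgeR adjusted p = 0.0131, 0.024 and 0.0395), beside 19.2% of all genes passing. In the control mice of the HS experiment 0 of 10 passed beside 12.4% of all genes, with 0.14, 0.35 and 0.49 on the log2 scale for Cd74, Lyz2 and C1qa. The 2 wild type vehicle mice are also the baseline of the HSP990 comparison, so the rise of Lyz2 there and its excess in R6/2 rest on the same pair of mice. With 1 of the 4 vehicle mice left out, 0 or 1 of the 10 markers passed, and 0 passed without the second wild type vehicle mouse.

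Of 19 partner genes, 3 were called in untreated R6/2, all of them higher, which is a smaller share than the 30.5% of all genes. H2-Aa averaged 35.4 CPM in untreated R6/2 and 20.6 CPM in wild type mice (0.86 on the log2 scale, edgeR adjusted p = 0.0217) and H2-Eb1 27.6 and 15.2 CPM (0.99, adjusted p = 0.039). Tlr4, the signalling partner of Cd14, averaged 14.0 and 4.89 CPM (adjusted p = 0.000292) and kept its call with any 1 mouse left out, whereas H2-Aa and H2-Eb1 kept theirs in 4 and 1 of 8 cases. The class II calls came from the vehicle mice, where H2-Aa and H2-Eb1 differed by 1.60 and 1.91 on the log2 scale (edgeR adjusted p = 0.00794 and 0.0138). In control mice H2-Aa was at 21.2 and 39.8 CPM in R6/2 against 28.1 and 27.7 CPM in wild type, and H2-Eb1 at 14.6 and 31.7 against 21.9 CPM in both, so the genotypes overlapped and neither gene passed (adjusted p = 0.878 and 0.95). Of 39 other macrophage and myeloid genes 5 rose and 0 fell, again a smaller share than that of all genes, among them Cd163 (11.9 against 7.34 CPM), Fcer1g (2.97 against 1.82 CPM) and Gas6 (234 against 158 CPM). With 1 of the 8 mice left out, Gas6 kept its call in 8 cases, Fcer1g in 4 and Cd163 in 3. Gas6 RNA was at a median of 152 CPM over the 24 mice, against 12.9 CPM for Csf1r. Which cells the Gas6 RNA came from was not tested.

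Genes of muscle fibres and adipocytes moved far more between these genotypes. Of 10 muscle fibre genes 9 fell, with a median of -1.65 on the log2 scale, and their sum was 66527 to 97737 CPM in the 4 R6/2 mice and 251050 to 285670 CPM in the 4 wild type mice. Of 8 adipocyte genes 4 fell (Car3, Plin1, Cidec and Fabp4), and the sum of the list was 508 to 726 CPM against 1850 to 5668 CPM. Car3 alone averaged 311 CPM in these R6/2 and 2999 CPM in these wild type mice, so it weighed heavily in the sum. The cells that its RNA came from were not tested. Satellite cell genes summed to 77.6 to 157 CPM in the 4 R6/2 mice and 50.7 to 63.0 CPM in the 4 wild type mice. The sums of endothelial, fibroblast and Schwann cell genes overlapped between the genotypes. The 20 highest genes took at most 21.9% of counts in any R6/2 mouse and at least 32.7% in any other mouse, and TMM factors ran from 1.19 to 1.40 in R6/2 and from 0.808 to 0.954 elsewhere. With scaling by library size only, the median of all genes rose from 0.05 to 0.66 on the log2 scale and 8 of 10 markers passed. Relative to the median of all genes, C1qa stood at 0.56 under both scalings, Lyz2 at 0.54 under both and Cd74 at 0.66 under both. The part of these shifts in the marker differences was not tested.

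**Figure D5:**
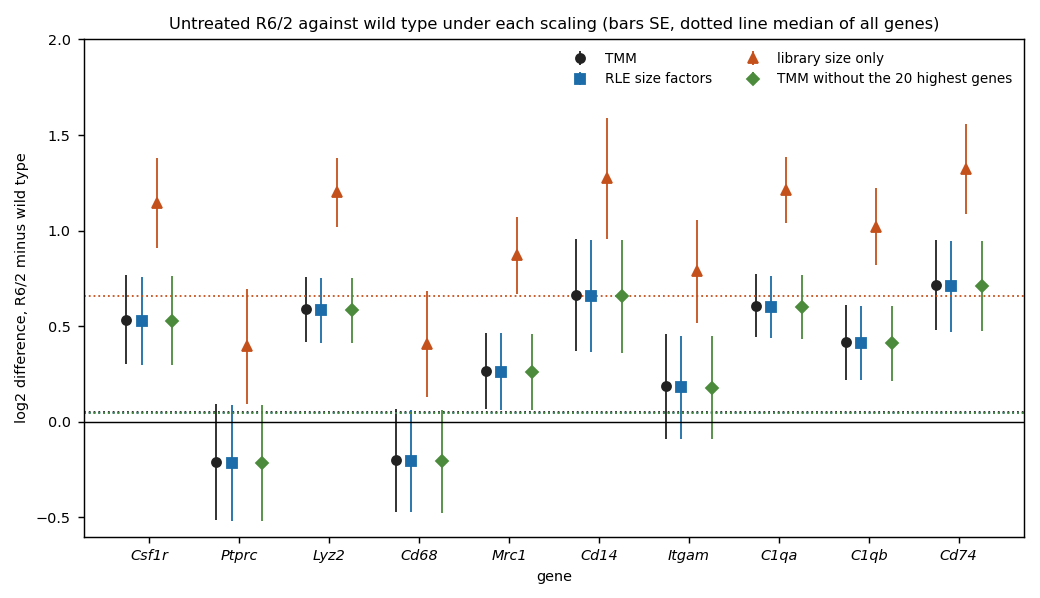
Log2 difference of untreated R6/2 minus wild type (4 mice each, bars SE) for the 10 markers under TMM, RLE size factors, library size only and TMM without the 20 highest genes, with a dotted line at the median of all genes under each. Library size alone lifts every marker and the median of all genes (0.66 against 0.05) together, and Cd68 and Ptprc lie above 0 only under it.

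Untreated Hsf1-/- mice did not differ detectably from wild type in these genes. Of the 10 markers 0 passed in the 4 against 4 comparison (0.974% of all genes), 0 in control mice (1.93%) and 0 with vehicle (0.0872%). The median differences of the markers were -0.05, -0.22 and 0.14 on the log2 scale. Cd74 in control mice, at 28.3 and 44.8 CPM against 58.0 and 71.8 CPM in wild type, was the furthest (-0.83 on the log2 scale, edgeR adjusted p = 0.201), and with vehicle it differed by 0.06. With 2 mice a group, an exact two-sided permutation test of a single gene cannot give a p under 0.333, so no such test was made.

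The genes whose levels followed the mean of the 10 standardised markers most closely over the 24 mice were C1qc (Pearson's r = 0.91), Ctss (0.84), Fermt3 (0.84), Laptm5 (0.83) and Spi1 (0.80), the last of which encodes PU.1. Fn1, Adamts2, Plac8, Cadm3 and Loxl3 followed at 0.78 to 0.80. The mice share genotype and treatment groups and the TMM scaling, so these values describe the libraries and carry no test. Once group means were removed, C1qc and Tfec were among the 10 highest by Pearson's r (0.86 and 0.87), but their Spearman's rho was lower (0.59 and 0.63), whereas Tnfaip8l2 and Gatd1 had r of 0.87 and rho of 0.81. These values were not computed without the 2 mice that stood apart. T, B and NK cell genes were scarce throughout, with a summed level of 0.33 to 4.32 CPM and with Cd3e and Ms4a1 at 0 counts in 10 and 19 of 24 libraries.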

How the data were processed

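RNA-seq libraries (polyA-selected, strand-specific, paired 40-base reads) of quadriceps from 24 mice were used as a table of raw counts per gene deposited by the authors. The submitters' notes name Bowtie, DESeq2 and mm9. The counting program and gene annotation are not given in the sources used here. Of 18669 gene numbers, 18594 matched a symbol and 18276 an mm9 position (GENCODE vM1). A gene was kept if 10 or more libraries had 2 or more counts of it (13754 genes). Counts were scaled by TMM and 12 group means were fitted with edgeR 4.0.16 (quasi-likelihood test, 12 residual degrees of freedom) in R 4.3.3 with limma 3.58.1. Every adjusted p is Benjamini-Hochberg over all genes tested, and "passed" or "called" means an adjusted p under 0.05. The 22 comparisons were repeated with other scalings, filters, a replicate block, DESeq2 1.42.0, the compared groups alone and 1 mouse left out. The code was tested on simulated data. Replicates of every group differed by more than sampling noise (chi-square over its degrees of freedom, 19.4 to 110.8). The 10 markers and the other gene lists were chosen with earlier results of these data known. Named were all markers, their detected partners, up to 5 called genes per list and comparison by size of change, the 10 genes most similar in level and in deviation, and Hsf1 and Hspa1a. Mpo, Camp, Ngp, Ltf, Elane, Maf, Cd3e and Ms4a1 were named after their values were seen.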

Additional observations from a re-analysis of the deposited data

Results flagged for a closer look

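The Lyz2 response in wild type differed between the treatments in a test of the difference itself. HS minus HSP990 was -1.37 on the log2 scale (edgeR's quasi-likelihood test, adjusted p = 0.0431). Each response comes from 2 treated and 2 untreated mice, and treatment and experiment cannot be told apart.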

How the results depend on the processing

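No marker called in a comparison changed its sign there under any setting tried. In untreated R6/2 against wild type, Cd68 and Ptprc, which were not called, went from -0.20 to 0.41 and from -0.21 to 0.40 on the log2 scale with library size only. Counts of markers called changed too. For HS on the mean of the 3 genotypes, 3 of 10 became 0 with scaling by library size only, 0 with a replicate block and 1 with only the groups compared (Itgam). With library size only, R6/2 against wild type went from 3 to 8 untreated, from 0 to 4 in control mice and from 3 to 8 with vehicle. With only the groups compared, HS minus HSP990 in wild type went from 1 to 2. DESeq2 called 1 marker for HSP990 on the mean of the genotypes (Mrc1), 2 for the HSP990 response of R6/2 minus wild type, 1 for HS minus HSP990 in Hsf1-/- (C1qa) and 1 for vehicle against control (Mrc1), where edgeR called 0. With 1 mouse left out, the number called ran from 0 to 2 for HS on the mean of the genotypes, from 0 to 1 for HSP990 in wild type, from 1 to 3 for R6/2 against wild type untreated, from 0 to 1 for the same with vehicle, and was 0 in every case for HS minus HSP990 in wild type. It ran from 0 to 1 for HS in R6/2 and for HS minus HSP990 in R6/2 (C1qb, without the second R6/2 HS mouse), for HSP990 on the mean of the genotypes (Mrc1, without the first Hsf1-/- vehicle mouse), for the HSP990 response of Hsf1-/- minus wild type (C1qa, without the first wild type HSP990 mouse) and for vehicle against control (Mrc1, without the first R6/2 control or the first Hsf1-/- vehicle mouse). A left-out mouse leaves fewer samples, and otherwise the cause was not tested.

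Replicate numbers did not pair the mice. The deviations of same-numbered mice correlated at -0.197, -0.164 and 0.239 in the HS experiment (wild type, R6/2, Hsf1-/-) and at 0.196, -0.0922 and -0.107 in the HSP990 experiment, and the replicate block changed no other count of markers called.

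Counts of all genes called moved as well. HS in wild type gave 283 (280 to 598 under other settings, 40 to 123 with 1 mouse left out) and, with both ranges in the same order, HS in R6/2 gave 6 (3 to 127, 3 to 500), HS in Hsf1-/- 1 (1 to 161, 0 to 28), HSP990 in wild type 255 (158 to 542, 59 to 168), HSP990 in R6/2 197 (8 to 376, 50 to 228) and HSP990 in Hsf1-/- 30 (0 to 142, 11 to 146). R6/2 against wild type untreated gave 4194 genes, 2075 of them higher, and with library size only 8876, 8455 of them higher. HS on the mean of the genotypes gave 844, 530 of them higher, and with library size only 1103, 386 of them higher, around a median of -0.11 on the log2 scale. Cd68, Cd14, Ptprc and Itgam had the fewest counts, with a counting error of up to 11.2% at the median and a variation between mice of 25.6 to 29.0%, against 2.57% and 23.7% for Cd74.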
